A study of Mus musculus with 4 samples.

Results

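Iron, ferritin and haem handling was followed through 10 genes: Hmox1 and Blvrb (haem breakdown), Slc40a1 and Cp (iron export), Fth1 and Ftl1 (ferritin), and Trf, Tfrc, Slc11a1 and Slc11a2 (iron carriage and uptake). They were taken by gene symbol from a table of 34535 transcripts and 24358 symbols, where all 10 were found with 15 transcripts, and their FPKM were summed per symbol. FPKM counts fragments per kilobase of transcript, relative to the mapped total, so levels of different genes can be compared. The table compared CD301b mphage, macrophages of mouse wound beds bearing the C-type lectin CD301b, with F4/80neg, immune cells sorted as negative for the macrophage surface protein F4/80. Both populations came from the dermis of wound beds on day 5 in 7-week-old male C57/Bl6 mice, were sorted by flow cytometry and were represented by 2 libraries each. The labels name no genotype or treatment and no unwounded skin, and no macrophages without CD301b were included. It is not stated whether the libraries of a population came from separate animals. The authors deposited 1 FPKM per transcript and population, so no spread between libraries, counting error or depth accompanies any value, and neighbouring levels cannot be told apart by their error. "A against B" gives CD301b macrophages first. A gene was called higher (or lower) in CD301b macrophages under 3 conditions: 1 or more of its transcripts had an adjusted p within 0.05 that way, no transcript had it the opposite way, and its summed FPKM pointed with the call. Adjusted p is the deposited Cuffdiff p after Benjamini-Hochberg correction over all tested transcripts, with 0.000999 as the smallest value it can take here. For genes with more than 1 transcript the smallest is given, which does not test the sum.

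Macrophages take up dying cells and red cells, open the haem ring with haem oxygenase, and either store the freed iron in ferritin, a hollow shell of heavy and light chains, or release it through ferroportin, the only known cellular iron exporter of mammals. Ceruloplasmin, a copper oxidase, oxidises the exported iron so that transferrin can carry it, and the transferrin receptor returns it to cells. The ferritin, ferroportin and transferrin receptor mRNAs carry iron-responsive elements, short hairpins that iron-regulatory proteins bind when iron is scarce. A hairpin before the coding sequence then blocks translation, whereas hairpins after it stabilise the mRNA. Part of this control acts on protein synthesis and is not visible in RNA levels.

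The hairpins are shown because they divide the genes into groups with different known control. In the GENCODE transcripts matched to the deposited accessions, an element was sought as a bulged C, an upper stem of 5 bases, the loop CAGTGN and the other side of the stem, with all 5 upper pairs and at least 3 of 5 lower pairs formed (G-T pairs allowed, gene strand only). Of 27099 coding transcripts searched, 106 (0.391%) held a match. Among the 10 genes, Fth1, Ftl1, Slc40a1 and Tfrc held matches. Capitals mark the bulged C and the first 5 bases of the loop, and positions are on GRCm38.
Slc40a1, 5′ UTR, chr1:45925466-45925492, minus strand: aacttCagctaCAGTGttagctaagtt
Fth1, 5′ UTR, chr19:9982733-9982759, plus strand: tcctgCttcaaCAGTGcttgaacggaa
Ftl1, 5′ UTR, chr7:45459780-45459806, minus strand: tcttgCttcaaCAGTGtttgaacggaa
Tfrc, 3′ UTR, chr16:32631220-32631246, plus strand: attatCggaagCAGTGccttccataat
Tfrc, 3′ UTR, chr16:32631599-32631625, plus strand: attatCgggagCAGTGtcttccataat
Tfrc, 3′ UTR, chr16:32631664-32631690, plus strand: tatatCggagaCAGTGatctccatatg
Tfrc, 3′ UTR, chr16:32631711-32631737, plus strand: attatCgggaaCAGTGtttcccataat
Slc11a2, 3′ UTR, chr15:100395154-100395180, minus strand: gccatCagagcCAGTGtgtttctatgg
The ferritin elements shared 25 of 27 bases with each other and 13 of 27 each with that of Slc40a1. The search allowed no gap in a stem, so pairs around an extra unpaired base were not counted. By that count the Slc11a2 window formed only 4 of 5 upper pairs and 1 of 5 lower pairs. It was kept as a looser match because an element in this 3′ UTR is textbook knowledge. It lay in the transcript NM_001146161 and not in NM_008732, the other Slc11a2 transcript of the table.

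**Figure D1:**
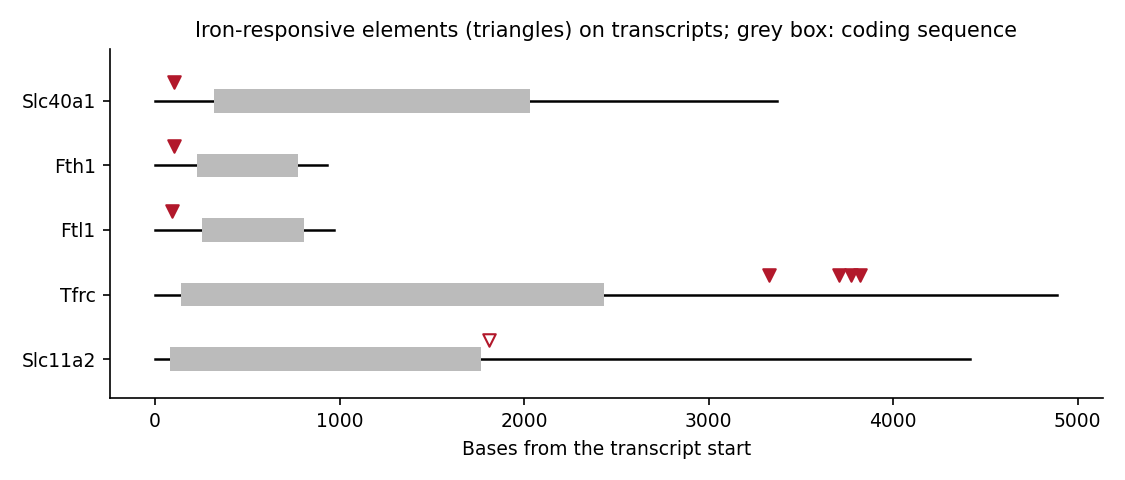
Positions of the iron-responsive elements along the RefSeq-matched transcripts of Slc40a1, Fth1, Ftl1, Tfrc and Slc11a2 (NM_001146161), in bases from the transcript start; lines are transcripts, grey boxes the coding sequence, filled triangles matches to the full rule and the open triangle the looser Slc11a2 match. The elements of Slc40a1, Fth1 and Ftl1 lie before the coding sequence, and the 4 of Tfrc and the 1 of Slc11a2 lie after it.

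Of the 10 genes, 5 were higher in CD301b macrophages (Slc40a1, Trf, Hmox1, Slc11a1 and Cp), the other 5 did not reach the threshold (Fth1, Ftl1, Tfrc, Slc11a2 and Blvrb), and none was called lower. Among all 13039 tested genes, 11% were called higher and 6.2% lower. At an unadjusted Cuffdiff p under 0.05, Tfrc joined the higher genes (6 in all) and still none was lower. Counted by transcript, 5 of 15 were higher and none was lower, against 9.1% and 5.14% of all tested transcripts. All 10 passed from the table into the authors' test, and none was under 1 FPKM in both populations. The summed FPKM was above that of F4/80-negative cells in all 10, compared with 55.3% of tested genes. Their median difference was 0.75 on the log2(FPKM + 1) scale, on which differences of low genes shrink, against 0.05 over all tested genes. With each population scaled to its median gene, every log2 difference shifted by about -0.11, the 10 genes stayed above 0 and their median was 0.64. In the authors' deposited table the 5 higher genes all had the smallest p, which gives an adjusted p of 0.000999 each by Cuffdiff.

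**Figure D2:**
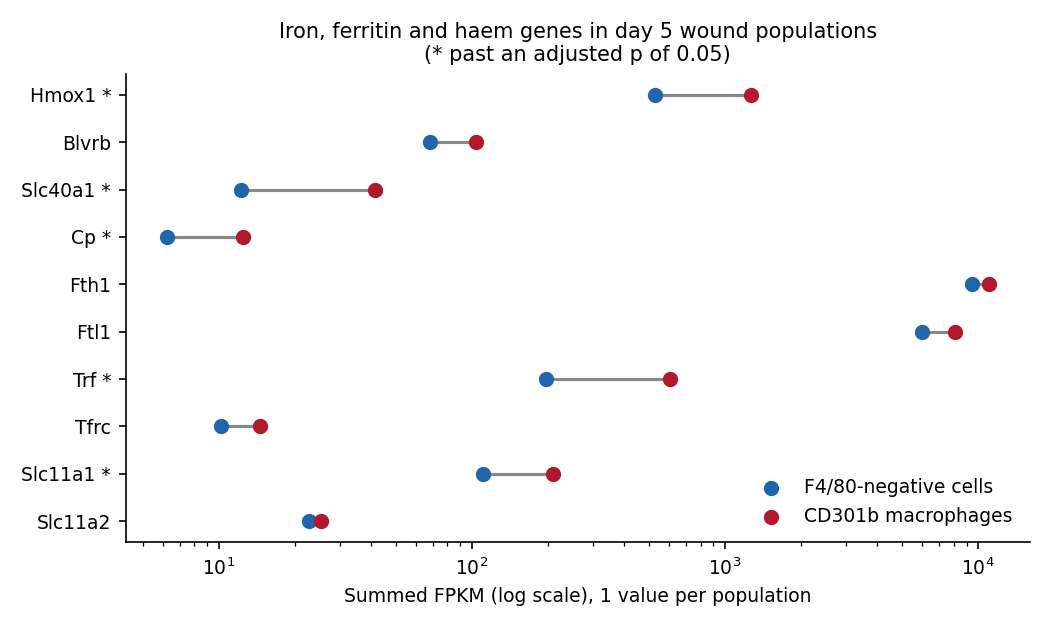
Summed FPKM of the 10 genes on a log axis in F4/80-negative cells (blue) and CD301b macrophages (red), 1 value per population with no error available; an asterisk marks an adjusted p at or under 0.05. Levels span from 6.22 FPKM (Cp, F4/80-negative cells) to 11003 FPKM (Fth1, CD301b macrophages), and the widest gaps belong to Slc40a1 and Trf.

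**Figure D3:**
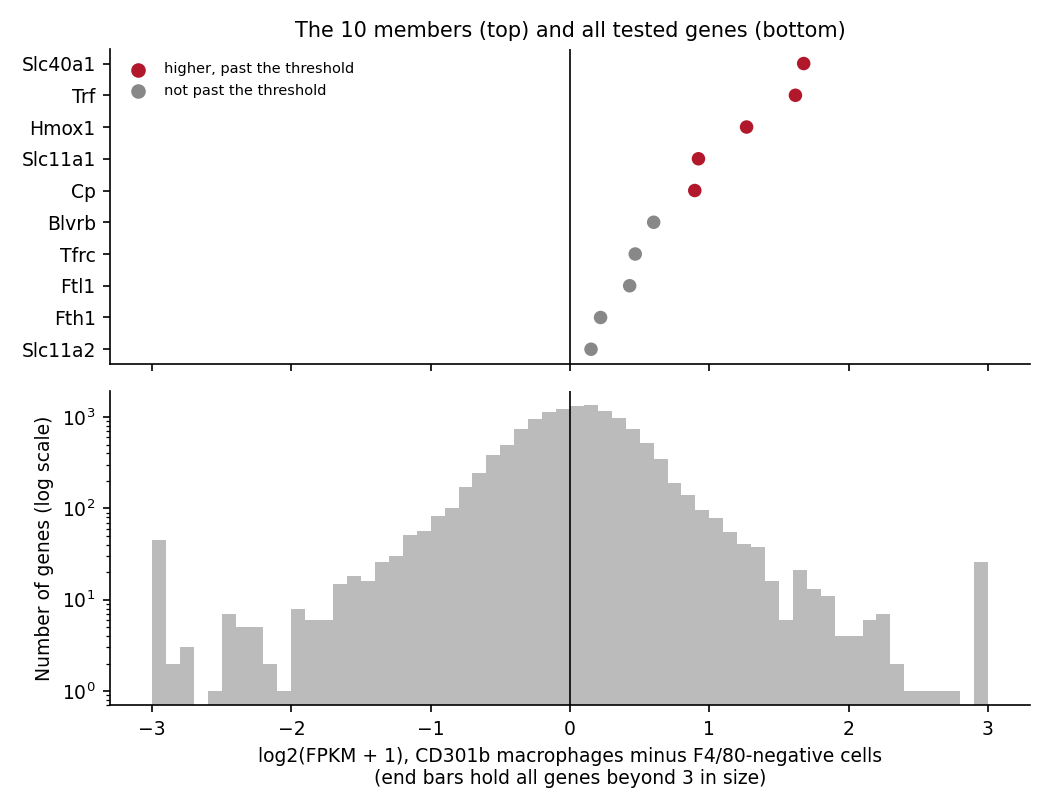
Difference in log2(FPKM + 1), CD301b macrophages minus F4/80-negative cells, for the 10 genes (top) and for the 13039 tested genes as a histogram with a log count axis (bottom). The genes run from 0.15 (Slc11a2) to 1.68 (Slc40a1), and the 5 past the threshold (red) all lie above the 5 that are not (grey).

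Haem breakdown was represented by an enzyme that rose and one that did not pass the test. Hmox1, the inducible haem oxygenase that opens the haem ring to biliverdin, iron and carbon monoxide (NCBI gene 15368, chr8:75093618-75100593, GRCm38), stood at 1270 FPKM in CD301b macrophages and 527 FPKM in F4/80-negative cells. It was 2.41-fold higher in the macrophages, where it ranked 62 of 24358 symbols by level, compared with 162 in F4/80-negative cells. Blvrb, biliverdin reductase B, which reduces biliverdin and flavins (chr7:27447978-27465981), was 103.8 against 68.1 FPKM. It had 2 coding transcripts with the larger value in CD301b macrophages, NM_001290525 at 66.7 against 45.2 FPKM and NM_144923 at 37.1 against 22.9 FPKM. Computed from the authors' deposited Cuffdiff p, the adjusted p of these transcripts was 0.25 and 0.368. The level of Hmox1 per transcript length was 12.2 times that of Blvrb in CD301b macrophages and 7.74 times in F4/80-negative cells.

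Haemoglobin mRNA, which could be carried by red cells that are sorted along or taken up, was present in both populations beside these values. Of 8 erythroid genes examined, Slc4a1 and Klf1 were not tested by the authors. None of the others was called in either direction, beside 11% higher and 6.2% lower over all tested genes. Nor was any of them at an unadjusted Cuffdiff p under 0.05. Hbb-b1 was the only one of the 8 with the lower value in CD301b macrophages, at 120 against 153 FPKM. Of the other globin genes, Hba-a1 was 477 against 407 FPKM, Hbb-b2 129 against 104 FPKM and Hba-a2 27.9 against 3.73 FPKM, with the reservation that globin genes are close copies. Alas2, the erythroid haem synthesis enzyme, was 1.96 against 1.40 FPKM, and Epor, the erythropoietin receptor, was 0.920 against 0.496 FPKM. The summed level of the 8 genes was 758 against 669 FPKM. Slc4a1 and Klf1, which define erythroid cells, were at or under 0.0931 FPKM in CD301b macrophages and at 0 in F4/80-negative cells. The part of these transcripts in the Hmox1 difference was not tested.

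Both genes of iron export were higher in CD301b macrophages. Slc40a1, ferroportin (NCBI gene 53945, chr1:45908070-45926532), was 41.5 FPKM in CD301b macrophages and 12.3 FPKM in F4/80-negative cells, a 3.38-fold difference. That was the largest log2 difference of the 10 genes, above that of 99.4% of tested genes. Cp, ceruloplasmin (NCBI gene 12870, chr3:19956933-20009750), was the least abundant of the 10 genes in both populations, at 12.4 against 6.22 FPKM summed, a 2.0-fold difference. Its call rested on NM_007752, which was 10.5 against 4.77 FPKM (2.19-fold) and made up 84.0% of the Cp sum in CD301b macrophages and 76.7% in F4/80-negative cells. The other Cp transcripts, NM_001276250 at 1.15 against 0.96 FPKM and NM_001276248 at 0.83 against 0.49 FPKM, were not past the threshold. Cp mRNA also overlaps its neighbour Hps3 on the opposite strand over 1.86% of its exon bases, and Hps3 was 15.7 against 11.7 FPKM. Whether counting used strand is not stated.

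Ferritin mRNA was far above that of the other 8 genes in level, and neither chain was past the threshold. Fth1, the heavy chain that oxidises incoming iron (NCBI gene 14319, chr19:9980600-9985111), was 11003 FPKM in CD301b macrophages and 9449 FPKM in F4/80-negative cells, 1.16-fold. The adjusted p of Fth1, computed from the authors' deposited Cuffdiff p, was 0.568. Its coding transcript NM_010239 held 99.99% of the sum in both populations, and the noncoding NR_073181 was 1.27 against 1.28 FPKM. Ftl1, the light chain that favours the mineral core (NCBI gene 14325, chr7:45457944-45459886), was 8083 against 6006 FPKM, 1.35-fold (adjusted p = 0.205 from the authors' deposited Cuffdiff p). They ranked 1 and 3 of all symbols in each population. The heavy to light mRNA ratio was 1.36 in CD301b macrophages and 1.57 in F4/80-negative cells, a difference with no error or test.

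The ferritin values carry a limit of read assignment. Of the 50-base words in Ftl1 mRNA, 78.9% also occur in transcripts of 15 other GENCODE genes, 8 of them annotated as pseudogenes, so reads cannot be placed there with certainty. For Fth1 the share was 4.0%, with 1 pseudogene. Trf shared 79.8% of its words with Gm20425, an annotated gene on the same strand whose exons cover 82.0% of the Trf exon bases. Words in that overlap come from the same bases of the genome, so they do not place reads at another site. Gm20425 was not among the symbols of the table. Of the Ftl1 exon bases, 11.3% overlap Gm22133, 1 of the 15 genes, on the same strand, and 36.7% overlap Gm10252 on the opposite strand. The words of Hmox1, Blvrb, Slc40a1, Cp and Tfrc were shared with no other gene.

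Among the genes of iron carriage and uptake, the mRNAs of the carrier and the phagosomal transporter were higher. Those of the receptor and its endosomal partner were not past the threshold. Trf, transferrin, the plasma iron carrier (NCBI gene 22041, chr9:103208876-103230286), was 606 FPKM in CD301b macrophages and 197 FPKM in F4/80-negative cells, 3.08-fold. Slc11a1, also known as Nramp1, which moves metal ions out of the phagosome of macrophages (NCBI gene 18173, chr1:74375014-74386057), was 210 against 110 FPKM, 1.90-fold. These are mRNA levels, and whether the Slc11a1 protein is functional in these C57/Bl6 mice was not tested. Tfrc, the transferrin receptor (NCBI gene 22042, chr16:32608896-32632794), was 14.5 against 10.2 FPKM, 1.42-fold. Its unadjusted p was 0.0112 in the authors' deposited table, and its adjusted p = 0.0677 missed the threshold. Slc11a2, also known as DMT1, which moves iron out of endosomes (NCBI gene 18174, chr15:100387898-100424209), was 25.3 against 22.7 FPKM.

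Slc11a2 was split over the same pair of transcripts in both populations. NM_001146161, which holds the element shown above, was 10.1 against 8.50 FPKM, and NM_008732, without it, was 15.3 against 14.2 FPKM. The transcript with the element thus made up 39.8% of Slc11a2 in CD301b macrophages and 37.4% in F4/80-negative cells. Neither transcript was past the threshold (adjusted p = 0.506 and 0.8 from the authors' deposited Cuffdiff p). Slc11a1 exceeded its paralogue Slc11a2 8.28 times in level in CD301b macrophages and 4.85 times in F4/80-negative cells. The ratio of the exporter Slc40a1 to the receptor Tfrc was 2.85 in CD301b macrophages and 1.2 in F4/80-negative cells. These ratios are descriptions without a test.

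Genes with an element before the coding sequence did not share one size of difference: Slc40a1 was 3.38-fold higher, whereas Ftl1 (1.35-fold) and Fth1 (1.16-fold) were not past the threshold. Tfrc and Slc11a2, with elements after it, were 1.42-fold and 1.12-fold and not past the threshold either. Hmox1, Trf, Slc11a1 and Cp, which were past it, held no match to the full rule, nor did Blvrb. Differences between these folds were not tested. Promoters from 250 bases before to 50 after the start were found in the RefSeq promoter table of GRCm38.p6 for 6 of the 10 genes (Blvrb, Cp, Fth1, Ftl1, Slc11a1 and Tfrc, 10 windows). None held TGACNNNGC, a core of the antioxidant response element, or TGACTCA, which AP-1 and related factors bind, on either strand. Of all 32851 windows, 12.4% held the former and 5.20% the latter. Hmox1, Slc40a1, Trf and Slc11a2 had no window, so they were not searched, nor were sites farther from any start.

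Macrophage markers moved in the same direction as the 5 higher genes. All 6 macrophage markers examined (Adgre1, Csf1r, Mertk, C1qa, Cd68 and Fcgr1) were higher in CD301b macrophages, from 1.78-fold (Cd68) to 3.69-fold (Adgre1, the gene of F4/80), with a summed level of 3798 against 1427 FPKM. None was near 0 in F4/80-negative cells, where Adgre1 itself was 151 FPKM (557 FPKM in CD301b macrophages), Csf1r was 283 FPKM and C1qa 425 FPKM. The 5 higher iron genes, at 1.90-fold to 3.38-fold, thus lay within the range of these markers, and whether they differ per macrophage was not tested. In sorted bulk samples, fewer cells of a type and less RNA per cell cannot be told apart. Mgl2, the gene of CD301b itself, was lower in CD301b macrophages (49.2 against 103 FPKM), against the label, and Ptprc, the gene of CD45, was 116 against 118 FPKM. Dendritic cell and mast cell markers (5 of 5 and 4 of 4 lower) marked the F4/80-negative cells, with summed levels of 56.0 against 228 FPKM and 16.4 against 47.3 FPKM. Among 7 neutrophil markers, 2 were lower and 1 was higher, and their sum was 2111 against 3848 FPKM. The 4 fibroblast markers, none of them past the threshold, summed to 3857 against 5692 FPKM, so fibroblast marker mRNA was present in both populations.

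**Figure D4:**
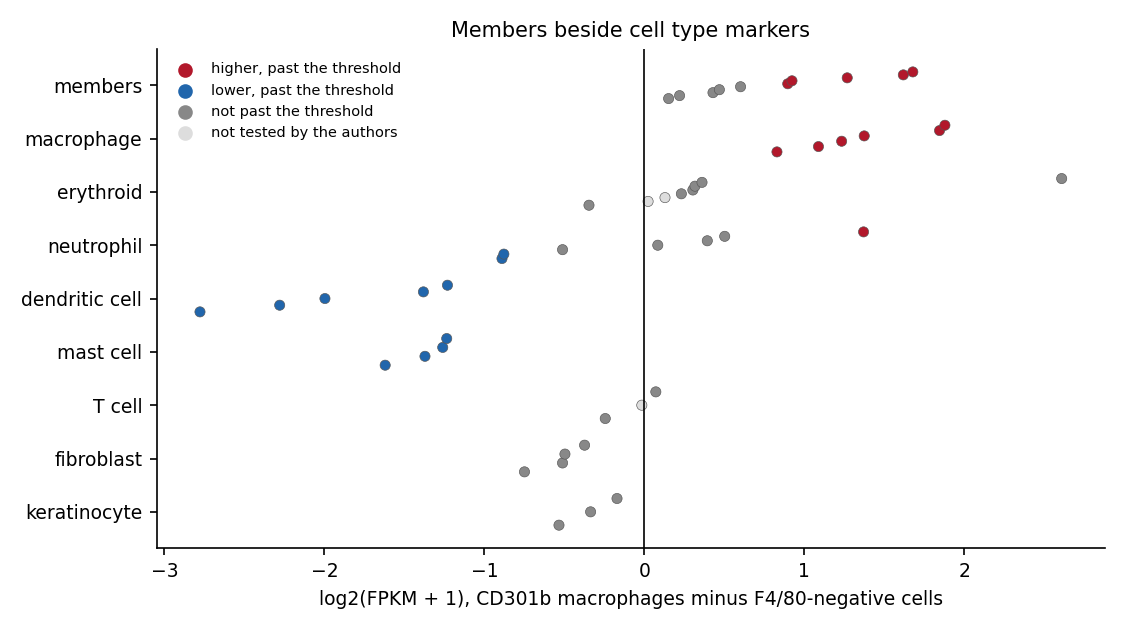
Difference in log2(FPKM + 1), CD301b macrophages minus F4/80-negative cells, for the 10 genes (members) and for markers of 8 cell types, 1 point per gene, coloured by the call from the authors' p-values. The 5 iron genes past the threshold lie in the range of the macrophage markers, and dendritic and mast cell markers lie below 0.

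The other genes of the pathway, a list of 57 chosen by role, were all found in the table, Flvcr1 and Flvcr2 under the older symbols Mfsd7b and Mfsd7c. Of the 49 that were tested, 12 were higher (24.5%) and 4 lower in CD301b macrophages, while 33 did not reach the threshold. Over all tested genes, 11% were higher and 6.2% lower by the same rule. The median log2 difference of the tested genes was 0.12, and 0.012 under median scaling. Among the tested genes at 1 FPKM or more in at least 1 population it was 0.21.

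Genes of haem uptake and breakdown gave 5 higher and 1 lower among 9 tested, beside 11% higher and 6.2% lower over all tested genes. Their median log2 difference was 0.63. Cd163, the scavenger receptor for haemoglobin bound to haptoglobin, was 34.9 against 7.13 FPKM, 4.89-fold higher. Its ligand Hp, haptoglobin, went the other way, at 54.8 against 98.3 FPKM, 1.80-fold lower. Hp is also made by neutrophils, and of the 7 neutrophil markers S100a8 (938 against 1725 FPKM) and S100a9 (1092 against 2025 FPKM) were lower in CD301b macrophages, while Ngp was higher (2.78 against 0.464 FPKM). The other 4 were not past the threshold: Cxcr2 was 27.3 against 25.7 FPKM, Retnlg 49.6 against 71.1 FPKM, Ltf 1.24 against 0.703 FPKM and Camp 0.585 against 0.119 FPKM. Their part in the Hp difference was not tested. Slc48a1, also known as HRG1, which passes haem from the phagolysosome to the cytosol, was 2.36-fold higher (106 against 45.0 FPKM). The constitutive haem oxygenase Hmox2 was 1.63-fold higher (83.2 against 51.1 FPKM). Blvra, the main biliverdin reductase, was 1.57-fold higher (52.6 against 33.5 FPKM, adjusted p = 0.02 from the authors' deposited Cuffdiff p). The fifth, Slc46a1, a folate and haem carrier at 4.96 against 2.24 FPKM, was below the level set for named genes and is given for completeness. Hmox1 mRNA was 15.3 times as abundant as that of Hmox2 in CD301b macrophages and 10.3 times in F4/80-negative cells. The haem exporter Flvcr1 was 15.8 against 16.1 FPKM and not past the threshold.

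Iron uptake, export and its control gave 3 higher and 2 lower genes among 11 tested, beside the same 11% and 6.2% over all tested genes, with a median log2 difference of 0.07 that became -0.04 under median scaling. Hfe, the haemochromatosis protein that associates with the transferrin receptor, was the most abundant of them and was 2.36-fold higher (105 against 44.5 FPKM). Steap3, the endosomal reductase that prepares iron for Slc11a2, was 1.57-fold higher (16.5 against 10.5 FPKM, adjusted p = 0.0243 from the authors' deposited Cuffdiff p). Scara5, a ferritin receptor, was 2.02-fold lower (3.61 against 7.30 FPKM). The 4 fibroblast markers summed to 3857 against 5692 FPKM. None of them was called, although 3 had an unadjusted Cuffdiff p under 0.05 toward F4/80-negative cells, and their part in the Scara5 difference was not tested. The remaining calls were of genes below the level set for named genes, Slc39a8 (3.55 against 1.61 FPKM, higher) and Slc22a17 (0.641 against 1.96 FPKM, lower). Hamp, hepcidin, which degrades ferroportin, was 0.199 against 0.493 FPKM, and Heph, the membrane relative of ceruloplasmin, was 0.311 against 0.501 FPKM.

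Iron delivery to ferritin and its recovery were represented by 4 tested genes, of which 2 were higher. Over all tested genes, 11% were higher and 6.2% lower. Ncoa4, the receptor that takes ferritin to autophagy, was 91.7 against 43.6 FPKM, 2.11-fold higher. Pcbp2, an iron chaperone and RNA-binding protein, was 1.60-fold higher by summed FPKM (99.7 against 62.3 FPKM), whereas the related and most abundant Pcbp1 was 165 against 153 FPKM and not past the threshold. Of the iron-regulatory proteins and their control, Aco1, which encodes IRP1, was 1.58-fold higher (18.5 against 11.8 FPKM, adjusted p = 0.0139 from the authors' deposited Cuffdiff p). Ireb2, which encodes IRP2, was 10.9 against 7.90 FPKM, and Fbxl5, the iron-sensing ubiquitin ligase subunit that removes it, was 70.3 against 60.5 FPKM, neither past the threshold.

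Among 6 transcription factors of haem and ferritin genes, Spic alone was called, beside 11% higher and 6.2% lower over all tested genes. Spic, which serves iron-recycling macrophages of the spleen, was 12.2 against 4.58 FPKM, 2.67-fold higher. Nfe2l2, the oxidative stress factor NRF2 that acts on Hmox1 and ferritin genes, was the most abundant at 276 against 227 FPKM, and the haem-sensing repressor Bach1 was 57.3 against 46.5 FPKM, neither past the threshold. Haem synthesis had no call among 9 tested genes, beside the same 11% and 6.2%, and 1 gene (Fech) at an unadjusted Cuffdiff p under 0.05. Its entry enzyme Alas1 was 34.0 against 41.3 FPKM. Fech, which inserts the iron, was 12.7 against 8.79 FPKM (adjusted p = 0.0671 from the authors' deposited Cuffdiff p). Of 7 genes of mitochondrial iron and iron-sulphur clusters reported here, 1 was lower and none higher, beside 6.2% and 11% over all tested genes. The summed FPKM was larger in CD301b macrophages for 1 of the 7. Their median log2 difference was -0.13, and -0.23 under median scaling. Slc25a28, the mitochondrial iron importer mitoferrin 2, was 1.66-fold lower (25.7 against 42.7 FPKM, adjusted p = 0.0139 from the authors' deposited Cuffdiff p). The scaffold Iscu, the most abundant, was 56.6 against 75.2 FPKM and not past the threshold.

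**Figure D5:**
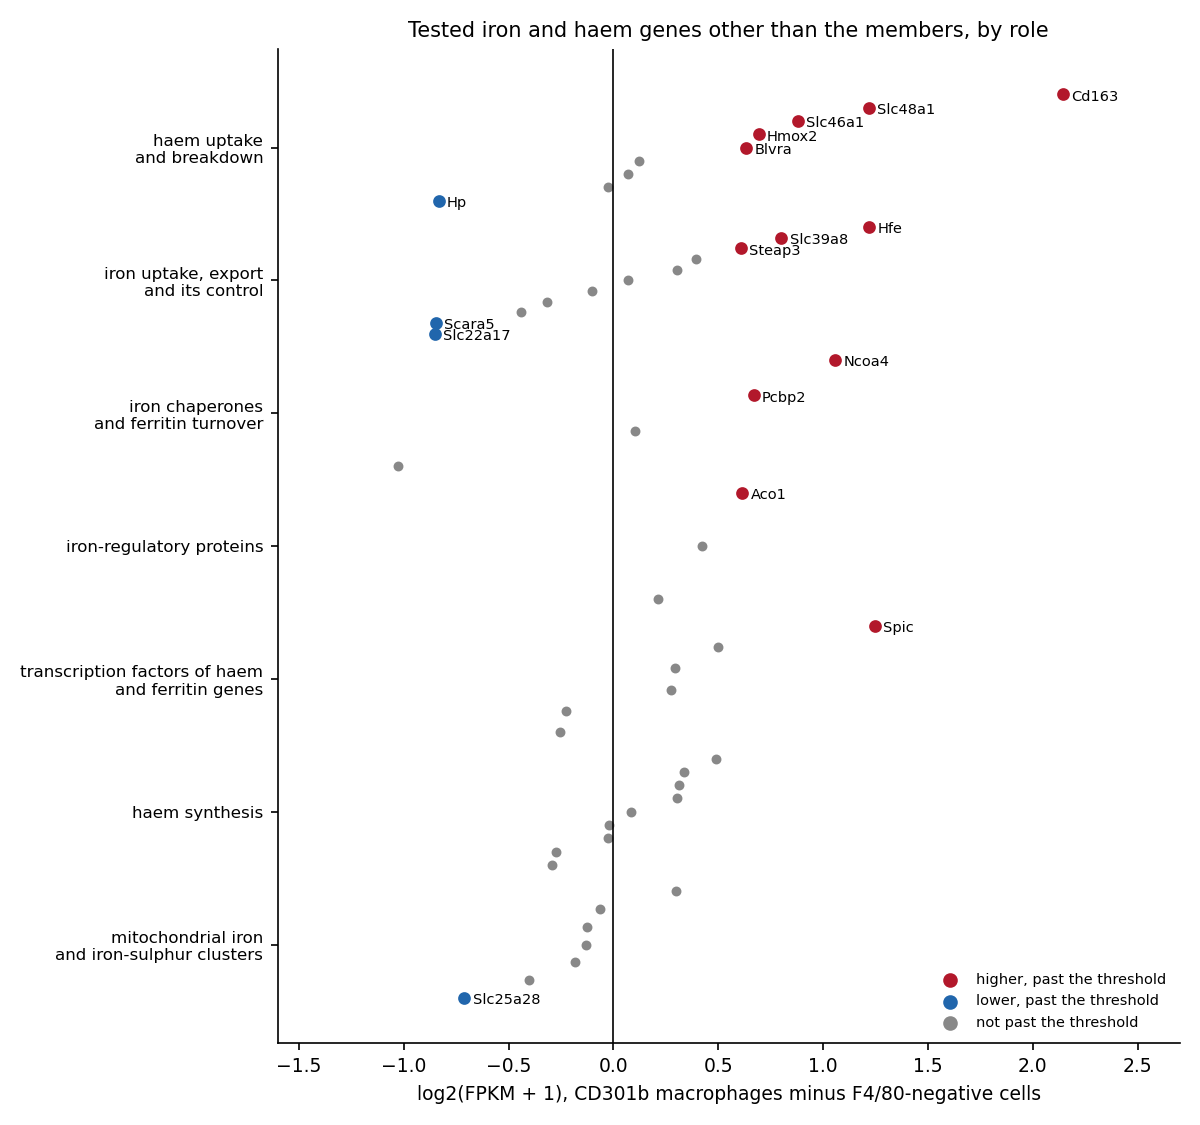
Difference in log2(FPKM + 1), CD301b macrophages minus F4/80-negative cells, for the 49 tested iron and haem genes outside the set, 1 point per gene, grouped by role and coloured by the call. Called genes are named: 12 lie above 0, with Cd163 at 2.14, and 4 below it, while haem synthesis holds none.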

How the data were processed

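Libraries were made from sorted cells with an Illumina TruSeq mRNA protocol, per the labels' protocols. Reads were processed with TopHat2 2.0.2 and Cuffdiff 2.0.2, and mm9 is the build named, per the submitters' processing notes. The authors deposited, per the file headers, 1 FPKM per transcript and population and an unadjusted p-value that goes down to 5e-05 (847 transcripts). The way libraries were combined, and how their spread entered the p-values, is not stated. Coordinates in the table fit GRCm38: 99.2% of the loci whose accession was found in RefSeq GRCm38.p6 overlapped that gene, including all 15 of the 10 genes. Positions printed are RefSeq or GENCODE M21 positions, counted from 1.

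Benjamini-Hochberg adjustment over the 16921 tested transcripts gave the 2408 deposited calls exactly (0 differences). No test of differences was run beyond the deposited p-values, because the table gives 1 value per population. Since separate animals and the handling of library spread are not stated, the p-values may measure technical spread alone. Calling and the element search were run on simulated data with large planted differences and fully paired elements. They did not cover smaller differences or incomplete stems. Members and lists were chosen with earlier results of these data known, and the rules of the element search were set with the sequences in view. Some genes of the role and marker lists are not reported here and were left out of the counts. Named genes outside the set were every called gene at 5 FPKM or more in either population and the most abundant gene of each role. Others are named where a count or a role called for them, after their values were seen. T cell (3 genes in the table, 2.19 against 2.52 FPKM summed) and keratinocyte markers (3 genes, 125 against 155 FPKM) had no call (0 and 1 at an unadjusted Cuffdiff p under 0.05). The T cell gene Cd3e was not tested by the authors. Alternatives changed the call rule, threshold, minimum level, minimum fold, pseudocount (0.1 or 5 in place of 1), scaling and transcripts summed. Software was pandas 2.3.3 with scipy 1.17.1 and numpy 2.4.6, under Python 3.11.15.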

Additional observations from a re-analysis of the deposited data

How the results depend on the processing

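Under the 6 alternative call rules, the counts of the 10 genes and of the higher genes among the other 57 stayed within 1.5 times. For the 10 genes, the 5 higher ones all had the smallest adjusted p and exceeded 1 FPKM and 1.5-fold. The stricter threshold and the filters on level and fold therefore could not change those counts. At an adjusted p of 0.01, the higher genes among the 57 went from 12 to 8, at the edge of that range. The lower genes among the 57 went from 4 to 2. Scaling each population to its median gene moved the median log2 difference of the other genes from 0.12 to 0.012, and keeping only genes at 1 FPKM or more in at least 1 population gave 0.21. Of 60 recomputed log2 differences of the 10 genes, 25 were identical to the reported value, because the setting could not alter them (a filter at 1 FPKM, or a choice of transcripts in a gene with 1 transcript or coding ones alone). Of the 35 that differed, 32 stayed within 1.5 times and none changed sign. The exceptions were Fth1 (0.11) and Slc11a2 (0.04) under median scaling and Slc11a2 (0.09) by its most abundant transcript alone. No paired analysis was possible because the table gives 1 value per population, and for the same reason leaving out a library was not run. Depth is unknown.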

Other observations

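The search for iron-responsive elements also found matches in genes outside the set. Of the 84 genes with a match, 47 (56.0%) held one inside the coding sequence. Matches before the coding sequence occurred in 6 genes: besides Slc40a1, Fth1 and Ftl1 these were Alas2, the erythroid haem synthesis enzyme known to carry one (1.96 against 1.40 FPKM, not past the threshold), Serpina3g (7.47 against 8.83 FPKM, not past it) and Ppp1r1b (at 0.0212 FPKM in F4/80-negative cells and listed at 0 in CD301b macrophages). Matches after it occurred in 29 genes of the table, of which 26 were tested. Of these, 2 were higher in CD301b macrophages and none was lower: Rab11fip5, an effector of recycling endosomes, at 101 against 37.8 FPKM (2.67-fold), and Cant1, a nucleotidase, at 18.4 against 10.9 FPKM (1.69-fold). These 2 of 26 stand beside 11% higher and 6.2% lower over all tested genes, so the count was not above the background. Tfrc was the only one of the 29 with more than 1 match by this rule. A match is a run of letters that can pair, and most of these genes have no known element. These genes were chosen after their values were seen.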
